A study of Mus musculus with 58 samples.

Results

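The genes described here are Maz, Ino80e, Hirip3, Pagr1a, Cd2bp2, Ppp4c, Kif22, Ypel3 and Tbx6, 9 genes of the mouse chromosome 7 segment that corresponds to human 16p11.2 and whose products work in the nucleus. They were chosen by their position in the deleted segment and by their known function, not by a measured value. Earlier results of these data were known when the choice was made. The group holds 9 of 54532 genes in the RNA-seq tables and 9 of 18411 genes in the tables of lysate RNA and ribosome footprints. The segment as listed here holds 22 other genes in these tables, and this list is longer than the study's own count of genes in the region. Every library came from striatum of B6129S mice. The 16p11.2 del/+ mice lack 1 copy of the whole segment, so all 9 genes have 1 copy in them, and they were compared with their wild-type (wt) littermates. The 3g del/+ mice carry premature stop codons in 1 copy each of Taok2, Sez6l2 and Mvp, made by CRISPR/Cas9 in a single engineered line, so they lack 1 working copy of 3 neighbouring genes and keep both copies of the 9 genes. Both changes are carried in the germ line and so are present in all cells, and the labels name no other agent or treatment for any group. By the study's methods the animals were young adults unless stated otherwise, and the labels of these libraries give no age.

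RNA-seq covered both sexes and both genotypes of each line with 4 libraries per group. For males, striata of animals numbered here within each group in the order in which values are given were lysed, and each lysate was divided into a library of total RNA (lysate RNA) and a library of ribosome-protected fragments (footprints), with 4 wt and 3 del/+ animals in the 16p11.2 line and 3 of each genotype in the 3g line. Footprints count ribosomes that sit on coding sequence, so that footprints set against lysate RNA of the same animal give an estimate of how many ribosomes each RNA carries, called translational efficiency.

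Genes of this group act at successive layers of the nucleus. DNA is wound on histones, remodelling complexes such as INO80 move or exchange these histones, histone chaperones hand them on, and methyltransferase complexes mark them. Zinc finger and T-box proteins read DNA sequence, the U5 particle takes part in splicing, and protein phosphatase 4 removes phosphate from chromatin and repair proteins. In adult striatum, where projection neurons no longer divide, genes of mitosis and of the early embryo are usually at low levels.

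All positions are from RefSeq on build GRCm38.p6, chromosome 7, which is the build mm10 that the submitters name for the RNA-seq tables. From the lower coordinate, Ypel3 spans bases 126776963 to 126780510, Tbx6 126781483 to 126785548, Ppp4c 126785866 to 126792557, Ino80e 126851584 to 126862372, Hirip3 126861929 to 126865377, Pagr1a 127015051 to 127017352, Maz 127021450 to 127027188, Kif22 127027729 to 127042467 and Cd2bp2 127191660 to 127196077. Ino80e and Hirip3 overlap by 444 bases (126861929 to 126862372), and Ino80e overlaps its neighbour Doc2a by 1122 bases. Whether strand was used when reads were counted is not given in the sources used here, so counts of Ino80e and Hirip3 that fall into the shared bases cannot be assigned with certainty.

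Maz, the Myc-associated zinc finger protein, is known to bind G-rich DNA. The letters GGGAGGG were searched on both strands in windows from 250 bases before to 50 bases after each transcription start listed in the RefSeq set, which can be several per gene. The letters occur in a window of 4 of the 9 genes, among them Maz itself, Tbx6 and Ino80e, against 23.8% of 27025 genes with a window and 32.2% of the 12511 such genes tested in 16p11.2 males. The stretches of 30 bases that hold them in Maz, Tbx6 and Ino80e are shown because 1 of the 9 genes encodes a protein of this binding class. They are written 5′ to 3′ on the strand of the gene, with the matched letters in capitals, which read CCCTCCC where the match is on the opposite strand.
Maz, minus strand, chr7:127027188-127027217: ccctcctgtCCCTCCCCCTCCCgctggccc
Maz, minus strand, chr7:127027068-127027097: caccctcctcccCCCTCCCtccttgcgcgc
Maz, minus strand, chr7:127027035-127027064: ctccttgggtccCCCTCCCccacagctgcc
Maz, minus strand, chr7:127026568-127026597: cgccctccttCCCTCCCTCCCgccggccgg
Tbx6, plus strand, chr7:126781294-126781323: tgcgagggagagGGGAGGGtacccaggtat
Tbx6, plus strand, chr7:126781383-126781412: ggccccaaggagGGGAGGGgctgtgatctc
Ino80e, minus strand, chr7:126862544-126862573: ttccagcctaacCCCTCCCcttcacaaccc
The first and last of the Maz stretches each hold 2 overlapping matches. A gene without a match lacks these letters in its window, and nothing more follows from it.

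Depth set what could be measured. RNA-seq libraries of the 16p11.2 line held 26592767 to 41300015 counts and those of the 3g line 11711099 to 65529807. Lysate RNA libraries held 15102576 to 19122488 counts, whereas footprint libraries held 342052 to 678130. Over 11363 genes, 1 library of each line stood apart from the rest of its line on the axis that separates the lines, wt male 17 of the 3g line (0.849, against -0.080 to 0.174 in the 15 others) and del/+ male 4 of the 16p11.2 line (0.211, against 0.818 to 1.25 in the 15 others). This axis ran from the mean of 3g wt females at 0 to that of 16p11.2 wt females at 1. Its genes were those called between these groups, so positions of the wt females were partly set by construction. In addition, the library labelled del/+ female 1 of the 16p11.2 line had 0.462 CPM (counts scaled to a common library size) of Xist and 106 CPM of Y-linked genes, against at least 326 CPM and at most 0.0226 CPM in the 15 other female libraries. These values of del/+ female 1 lie in the range of the male libraries and go against its label. Male libraries had at most 0.557 CPM of Xist and at least 74.1 CPM of Y-linked genes. On a scale common to all RNA-seq libraries, del/+ male 4 had 66.7 CPM of Maz. The other del/+ males of its line had 65.9 to 71.1 CPM. Whether the labels of these 3 libraries are right was not tested further. They were kept in the groups their labels give, and results that moved without them are given both ways. Summed CPM of the 7 lists of cell type markers overlapped between del/+ and wt in all 28 comparisons of list and assay made in the 16p11.2 line. Those of the 9 striatal projection neuron markers, for example, were 3680 to 5587 CPM in del/+ males and 4465 to 5586 CPM in wt males, and none of these markers was at 0.

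In 16p11.2 del/+ males, 6 of the 9 genes were lower than in wt in RNA-seq: Maz, Ino80e, Hirip3, Cd2bp2, Ppp4c and Ypel3, each to between 43.3% and 50.6% of wt. The same 6 genes were lower in females and in lysate RNA, and 1 of the 3 genes with enough footprints to be tested, Maz, was lower in footprints. Kif22 and Tbx6 were too scarce or too scattered to pass the test, and Pagr1a had no count in any of the 16 RNA-seq libraries of this line. A gene was called where its adjusted p was below 0.05 in edgeR's quasi-likelihood test, adjusted by Benjamini-Hochberg over all genes tested. Of 17957 genes tested in males, 0.0947% were called lower, against 6 of the 8 members tested, and in females 0.111% of 18067 genes were called lower, again against 6 of 8 members. In lysate RNA 0.126% of 14330 genes were called lower, against 6 of 8 members, and in footprints 0.0503% of 5964 genes, against 1 of 3 members. Most of the remaining lower calls in RNA-seq and lysate RNA were other genes of the deleted segment. These were 11 of the 17 genes called lower in males, 13 of 20 in females and 10 of 18 in lysate RNA. Because striatum was measured in bulk, fewer cells of a type and less RNA per cell cannot be told apart for any of these genes.

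**Figure D1:**
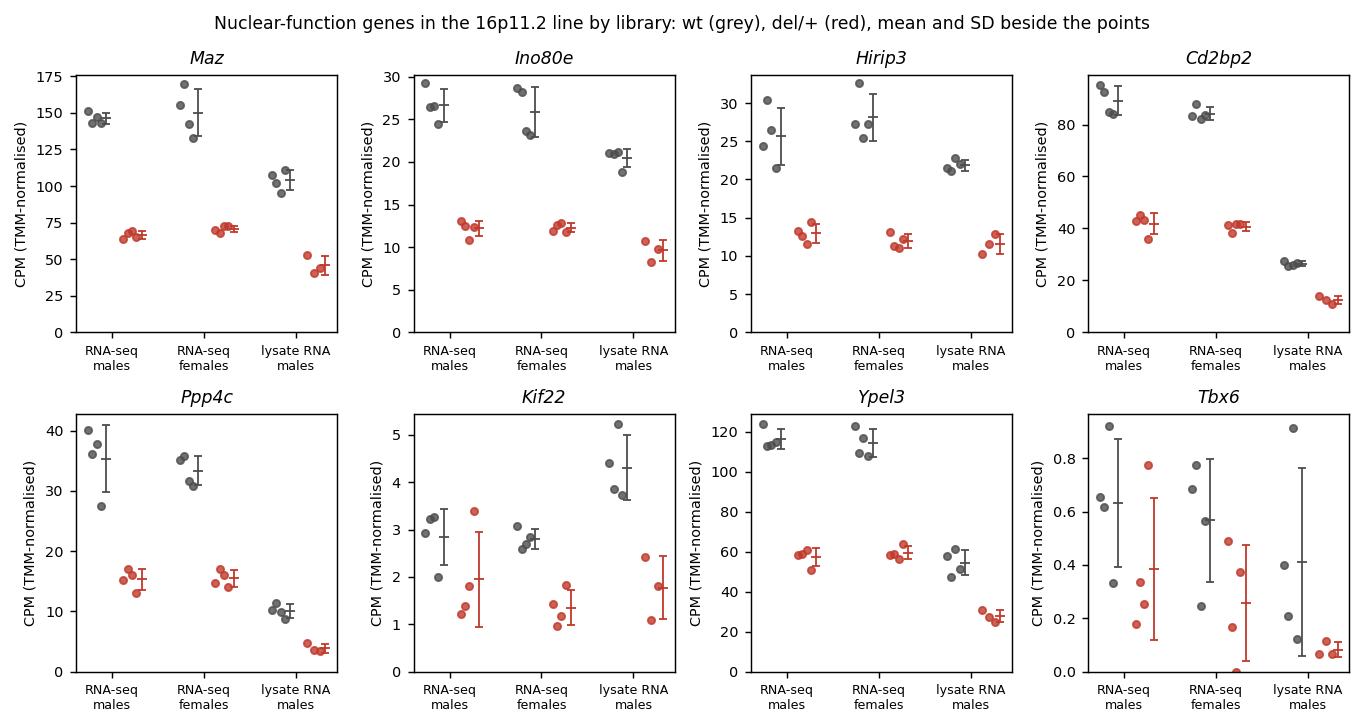
CPM of 8 members (all but Pagr1a) in every 16p11.2 library of male RNA-seq, female RNA-seq and lysate RNA, with 1 point per library, wt in grey, del/+ in red, and the mean and SD of each group as a bar. For Maz, Ino80e, Hirip3, Cd2bp2, Ppp4c and Ypel3 all del/+ points lie below the wt points.

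Values are CPM, normalised by the trimmed mean of M-values within each comparison. They are not corrected for length and so are compared here only within a gene. The genes of DNA binding and chromatin come first. For Maz, male RNA-seq gave CPM of 151, 143, 147 and 143 in wt and 63.8, 67.8, 69.5 and 65.1 in del/+, that is 146 ± 3.85 (SD, n = 4) and 66.6 ± 2.55 (SD, n = 4). Its log2 fold change, del/+ minus wt, was -1.13 ± 0.077 (SE), with a 95% interval of -1.31 to -0.96 and an adjusted p of 0.000415, or 45.5% of wt. In females the CPM were 156, 169.7, 142 and 133 in wt and 69.8, 68.1, 72.5 and 72.7 in del/+, for a log2 fold change of -1.08 (-1.26 to -0.91, adjusted p = 4.06e-05). The 8 del/+ libraries thus lay in a narrow band far below every wt library. In lysate RNA, wt animals had 108, 102, 95.2 and 111 CPM and del/+ animals 52.7, 40.8 and 43.7 CPM, a log2 fold change of -1.18 (-1.43 to -0.94, adjusted p = 0.000983).

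Ino80e, a subunit of the INO80 remodelling complex, was at 29.2, 26.4, 26.6 and 24.5 CPM in wt males and 13.1, 12.4, 10.9 and 12.4 CPM in del/+ males. The log2 fold change was -1.13 ± 0.10 (SE; -1.36 to -0.90; adjusted p = 0.000910). Females had 28.7, 28.2, 23.6 and 23.2 CPM in wt and 11.9, 12.6, 12.8 and 11.7 CPM in del/+ (log2 fold change -1.08, -1.28 to -0.87, adjusted p = 0.000156). No del/+ library reached the lowest wt library in either sex. In lysate RNA the levels were 21.0, 20.9, 21.2 and 18.9 CPM in wt and 10.8, 8.29 and 9.82 CPM in del/+ (log2 fold change -1.09, -1.37 to -0.82, adjusted p = 0.00259), again without overlap.

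Hirip3 encodes a histone-binding protein that was identified as a partner of the histone chaperone HIRA. It was at 24.3, 30.4, 26.4 and 21.4 CPM in wt males and 13.3, 12.6, 11.6 and 14.5 CPM in del/+ males, with a log2 fold change of -0.98 ± 0.13 (SE; -1.27 to -0.70; adjusted p = 0.0124). The call was lost without any 1 of del/+ males 1, 2 and 3 or wt males 2 and 3 (adjusted p = 0.0533 to 0.0757). In females the CPM were 27.2, 32.6, 25.4 and 27.3 in wt and 13.1, 11.3, 11.02 and 12.3 in del/+. The female log2 fold change was -1.24 ± 0.10 (SE; -1.45 to -1.02; adjusted p = 6.93e-05), which is 42.5% of wt (36.7% to 49.2%), and this interval lay wholly below the log2 fold change of -1 that 1 copy of 2 would give. In lysate RNA, wt animals had 21.5, 21.1, 22.8 and 22.0 CPM and del/+ animals 10.2, 11.5 and 12.9 CPM. The groups did not overlap, the log2 fold change was -0.92 (-1.18 to -0.67, adjusted p = 0.00504), and the adjusted p was 0.0516 without del/+ animal 2.

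Pagr1a, whose protein joins PTIP in the KMT2C and KMT2D histone methyltransferase complexes, had 0 counts in all 16 RNA-seq libraries of the 16p11.2 line and had counts there only in lysate RNA and footprints, whose tables were made on another build. Lysate RNA counts were 30, 11, 23 and 15 in wt and 12, 10 and 6 in del/+, which overlap. Its log2 fold change of -0.97 (-1.87 to -0.065) had an unadjusted p of 0.0376 and an adjusted p of 0.990 in edgeR. Footprint counts were 7, 3, 8 and 1 in wt and 1, 1 and 1 in del/+, below the filter for testing.

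Cd2bp2 encodes a protein of the U5 small nuclear ribonucleoprotein of the splicing machinery. Its CPM were 95.03, 92.6, 84.9 and 83.9 in wt males and 42.7, 45.1, 43.4 and 35.9 in del/+ males (log2 fold change -1.09 ± 0.10 SE, -1.31 to -0.88, adjusted p = 0.000910). In females they were 83.2, 88.0, 82.1 and 83.7 in wt and 41.2, 38.2, 41.8 and 41.7 in del/+ (log2 fold change -1.05, -1.18 to -0.92, adjusted p = 8.29e-06). Its del/+ and wt libraries were separated by a wide gap in both sexes. Lysate RNA gave 27.5, 25.5, 25.96 and 26.8 CPM in wt and 14.01, 12.4 and 10.8 CPM in del/+, also without overlap (log2 fold change -1.09, -1.35 to -0.84, adjusted p = 0.00155).

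Ppp4c, the catalytic subunit of protein phosphatase 4, had the largest fitted loss of the members tested by edgeR in male RNA-seq and in lysate RNA. Male RNA-seq levels were 40.1, 36.1, 37.8 and 27.4 CPM in wt and 15.2, 16.98, 16.0 and 13.0 CPM in del/+, a log2 fold change of -1.21 ± 0.14 (SE; -1.51 to -0.91; adjusted p = 0.00344) or 43.3% of wt. Females had 35.1, 35.8, 31.7 and 30.8 CPM in wt and 14.7, 17.03, 16.1 and 14.05 CPM in del/+ (log2 fold change -1.11, -1.30 to -0.92, adjusted p = 6.93e-05). All del/+ libraries were below all wt libraries. In lysate RNA the levels were 10.2, 11.4, 9.97 and 8.68 CPM in wt and 4.76, 3.57 and 3.36 CPM in del/+, that is 38.8% of wt (log2 fold change -1.37, -1.75 to -0.99, adjusted p = 0.00504). This call too was lost without del/+ animal 2 (adjusted p = 0.0542), and the interval holds -1.

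Ypel3, a member of the small zinc-binding Yippee-like family that restrains cell growth, was at 124, 113, 113 and 115 CPM in wt males and 58.4, 59.1, 60.9 and 51.0 CPM in del/+ males (log2 fold change -1.02 ± 0.088 SE, -1.21 to -0.83, adjusted p = 0.000910). Female levels were 123, 109, 117 and 108 CPM in wt and 58.1, 58.8, 56.5 and 64.1 CPM in del/+ (log2 fold change -0.94, -1.09 to -0.80, adjusted p = 3.21e-05). The loss was close to 1 copy of 2 in both sexes. Lysate RNA gave 57.9, 47.2, 61.2 and 51.5 CPM in wt and 30.7, 27.4 and 24.8 CPM in del/+, a log2 fold change of -0.98 (-1.24 to -0.72, adjusted p = 0.00401).

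Kif22 encodes a kinesin that binds chromosomes in mitosis, and it was scarce in this tissue. Male wt libraries had 2.92, 3.22, 3.27 and 1.99 CPM (107, 125, 103 and 60 counts) and del/+ libraries 1.21, 1.39, 1.80 and 3.39 CPM (34, 58, 57 and 123 counts). The groups overlapped, with del/+ male 4, the library that stands apart, the highest of the 8. The log2 fold change was -0.55 (-1.27 to 0.17, adjusted p = 0.742) with it and -0.96 (adjusted p = 0.958) without it. In females Kif22 was at 3.07, 2.59, 2.69 and 2.84 CPM in wt and 1.42, 0.969, 1.17 and 1.83 CPM in del/+, which do not overlap. The female log2 fold change of -1.05 (-1.50 to -0.60) had an unadjusted p of 0.000317 and an adjusted p of 0.168 in edgeR, against an adjusted p of 0.00133 in DESeq2. Lysate RNA gave 4.41, 3.85, 5.23 and 3.74 CPM in wt and 2.41, 1.09 and 1.82 CPM in del/+, without overlap, with a log2 fold change of -1.29 (-1.90 to -0.68) and an adjusted p of 0.307 in edgeR and 0.0239 in DESeq2.

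Tbx6, a T-box factor that directs paraxial mesoderm in the embryo, had at most 29 counts in any RNA-seq library of this line. Male counts were 24, 24, 29 and 10 in wt and 5, 14, 8 and 28 in del/+, overlapping, with a log2 fold change of -0.69 (-1.72 to 0.35, adjusted p = 0.755) that was -1.27 without del/+ male 4. Female counts were 28, 20, 8 and 23 in wt and 19, 6, 0 and 14 in del/+, a log2 fold change of -1.07 (-2.42 to 0.28, adjusted p = 0.998) that was -1.57 without del/+ female 1. These intervals hold both 0 and -1. At this depth a loss of 1 copy of Tbx6 was not detectable. Lysate RNA counts of 8, 3, 15 and 2 in wt and 1, 2 and 1 in del/+ were below the filter.

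**Figure D2:**
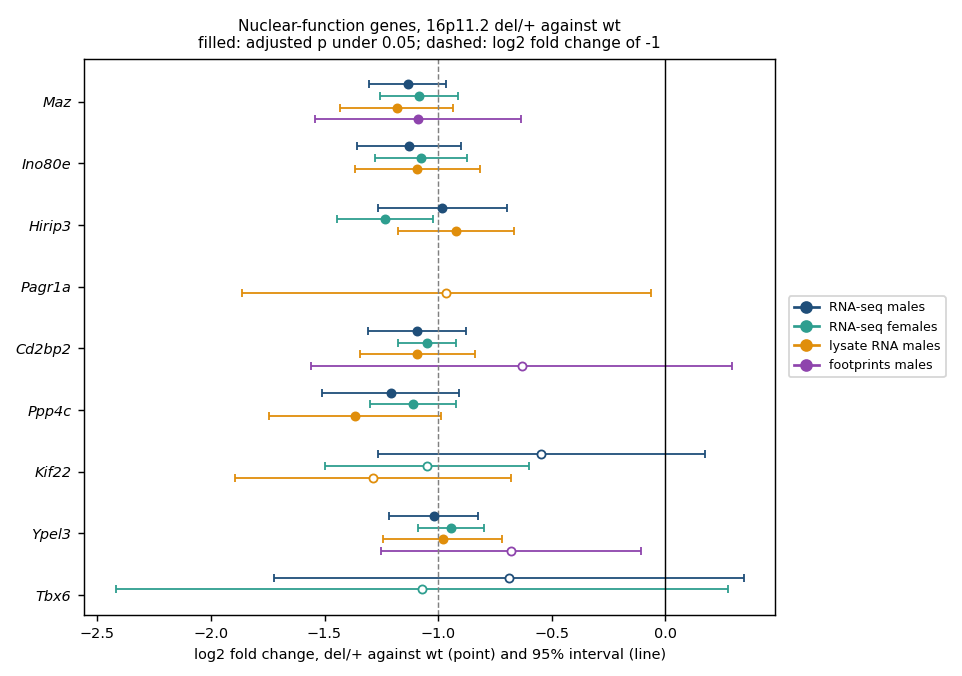
Log2 fold change of each member, 16p11.2 del/+ minus wt, in male RNA-seq, female RNA-seq, lysate RNA and footprints, with points for the fitted value, filled where called, and bars for the 95% interval. Of the 27 intervals, 26 hold -1, the value of 1 copy of 2, and 4 hold 0.

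Across the 4 comparisons in the 16p11.2 line there were 27 fitted values for these genes, from -1.37 to -0.55, of which 19 were called. The interval held -1 for 26 of the 27, the exception being Hirip3 in females, and it held 0 for 4, Kif22 and Tbx6 in males, Tbx6 in females and Cd2bp2 in footprints. The median over the members tested was -1.06 in males, -1.07 in females and -1.09 in lysate RNA, against -0.0051 over all genes tested in males. Counting genes with every del/+ library below every wt library gave 6 of 8 members against 2.12% of genes in males, 7 of 8 against 1.7% in females, 7 of 8 against 2.63% in lysate RNA and 2 of 3 against 3.22% in footprints. Leaving out del/+ male 4 or del/+ female 1 left 6 members called in either sex.

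No difference in the loss between the sexes was detected for any member. The difference of the male and female log2 fold changes, male minus female, was 0.51 (-0.34 to 1.35) for Kif22 and 0.39 (-1.38 to 2.17) for Tbx6, both scarce. Without del/+ male 4, which stands apart, these values were 0.074 for Kif22 and -0.21 for Tbx6, and without del/+ female 1 they were 0.53 and 0.89, so that they moved with single libraries. Among the 6 called genes it was largest for Hirip3, 0.25 (-0.080 to 0.59, unadjusted p = 0.128, adjusted p = 0.835 in edgeR's test of the interaction of genotype and sex), and between -0.10 and -0.048 for the 5 others. Without del/+ male 4 the Hirip3 difference was 0.18, and without del/+ female 1 it was 0.30. None of the 8 members tested was called and 0% of 18870 genes were called. At an unadjusted p under 0.05 there were 0 members and 818 genes, and 3 genes were called by DESeq2.

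The order of the 6 called genes by fitted loss was the same in male RNA-seq and lysate RNA, from Ppp4c through Maz, Ino80e, Cd2bp2 and Ypel3 to Hirip3, which were prepared from separate libraries. Females had another order (rho = 0.143 over 6 genes), with Hirip3 first and Ypel3 last. Only Hirip3 moved, from last to first, and the other genes kept the same order among themselves. Neighbours in these orders have overlapping intervals, so the order is a description of fitted values and not a ranking of genes.

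Footprints were sparse for most of these genes, and only Maz, Ypel3 and Cd2bp2 passed the filter in the 16p11.2 line. Maz footprints were 173, 214, 195 and 185 CPM in wt and 82.6, 83.4 and 104 CPM in del/+, from 62, 90, 95 and 102 and 30, 30 and 35 counts. The groups did not overlap, and the log2 fold change of -1.09 (-1.54 to -0.64, adjusted p = 0.0250) was close to that of its RNA. This call rested on few libraries, since it was lost without any 1 of del/+ animals 1, 2 and 3 or wt animals 3 and 4 (adjusted p = 0.0667 to 0.308), while the log2 fold change stayed between -1.21 and -1.03. Ypel3 footprints were 33, 33, 35 and 41 counts in wt and 22, 17 and 13 in del/+, and its log2 fold change was -0.68 (-1.25 to -0.11, adjusted p = 0.712). Cd2bp2 had 15, 16, 10 and 17 and 8, 12 and 2 counts, with a log2 fold change of -0.63 (-1.56 to 0.29, adjusted p = 0.909) that moved to -1.17 without del/+ animal 2 and to -0.22 without del/+ animal 3.

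The remaining 6 genes fell below the footprint filter, and their counts are given as they stand. Ino80e had 12, 13, 13 and 3 in wt and 5, 6 and 4 in del/+, and Ppp4c had 8, 10, 7 and 16 and 9, 8 and 3. Hirip3 had 10, 6, 5 and 10 in wt and 6, 12 and 8 in del/+, so that the groups overlapped, unlike those of its RNA. Kif22 footprints totalled 11 of 1990368 counts in wt (5.53 CPM before normalisation) and 0 of 1150676 in del/+. A count of 0 allows up to 3 counts over the group, or 2.61 CPM, so Kif22 footprints were at least 2.12-fold lower in del/+ against that floor, which does not carry the counting error of the 11 wt counts. Tbx6 had 0, 2, 3 and 0 counts in wt and 1, 1 and 1 in del/+.

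Translational efficiency, tested as the interaction of genotype with assay over footprints and lysate RNA, was not called for any of the 9 genes, and 0.00664% of 15071 genes were called. The filter was applied to footprints and lysate RNA together, so it let in genes with very few footprints. In footprints alone only 3 of the 9 genes passed it, and 5964 genes in all. For the other members the lack of a call says little. Of the members, 3 had an unadjusted p under 0.05, as did 940 genes, and DESeq2 called 4 genes, none of them a member. For Maz the difference was 0.0069 (-0.46 to 0.47), so that the fitted loss was nearly the same in footprints and in RNA. Hirip3 had the largest fitted difference among the members called in RNA-seq, with log2 ratios of footprints to RNA of 0.37, -0.57, -1.15 and -0.28 in wt and 0.69, 1.53 and 0.89 in del/+. Those groups did not overlap, but the share of all genes whose ratios do not overlap was not counted. The difference was 1.36 (0.50 to 2.22, unadjusted p = 0.00318, adjusted p = 0.724 in edgeR). It rested on 31 footprints in wt and 26 in del/+ in all. Ppp4c had log2 ratios of 1.13, 1.06, 0.53 and 1.74 in wt and 2.38, 2.64 and 1.41 in del/+, which overlap, and a difference of 1.03 (0.047 to 2.01, unadjusted p = 0.0407, adjusted p = 0.792). For Ino80e, Cd2bp2 and Ypel3 the differences were 0.32, 0.38 and 0.22, with intervals that hold 0. The third member with an unadjusted p under 0.05 was Kif22, whose del/+ footprints were all 0.

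**Figure D3:**
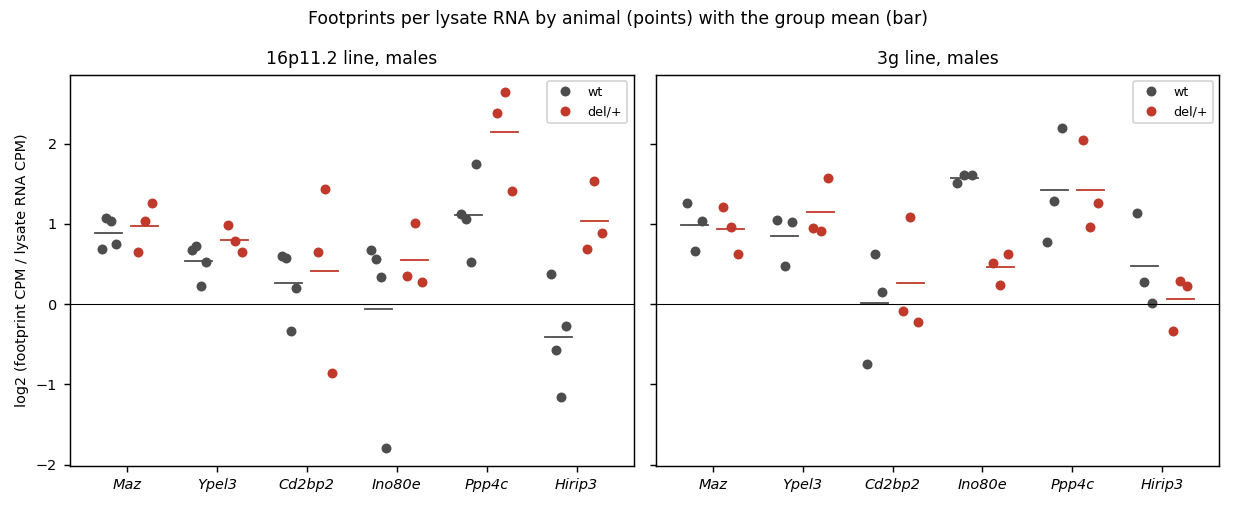
Log2 ratio of footprint CPM to lysate RNA CPM for 6 members in both lines, with 1 point per animal, wt in grey, del/+ in red, and a bar at each group mean. In the 16p11.2 line the del/+ ratios of Hirip3 (0.69 to 1.53) lie above those of wt (-1.15 to 0.37), and in the 3g line the del/+ ratios of Ino80e (0.24 to 0.62) lie below those of wt (1.503 to 1.61). Neither was called, and the share of all genes whose ratios do not overlap was not counted.

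In the 3g line, where the 9 genes keep both copies, none of them was called in any assay. In RNA-seq 0 of 8 members were called in males and 0 of 8 in females, against 0% of 19081 and 0.00526% of 19024 genes. In lysate RNA 0 of 7 members were called against 0.0209% of 14378 genes, and in footprints 0 of 6 against 0.0132% of 7553 genes. No member had an unadjusted p under 0.05 in RNA-seq of either sex or in lysate RNA, where 274, 2098 and 707 genes did, and 1 member did in footprints, where 602 genes did. DESeq2 called 1, 109, 13 and 13 genes in these comparisons, none of them a member. Members with groups that did not overlap numbered 0 of 8 in males (1.95% of genes), 0 of 8 in females (5.66%), 3 of 7 in lysate RNA (9.65%) and 1 of 6 in footprints (13.3%).

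For the 6 genes called in the 16p11.2 line, the 3g data placed a limit on any loss. Over male RNA-seq, female RNA-seq and lysate RNA their 18 log2 fold changes lay between -0.13 and 0.15, all 18 intervals lay wholly above -1, and the bounds ran from -0.38 to 0.40, which is 76.7% to 132% of wt. Maz, for example, was at 135, 136, 135 and 137 CPM in wt females and 131, 137, 132 and 127 CPM in 3g del/+ females, a log2 fold change of -0.041 (-0.11 to 0.029). In 3g males it was at 159.5, 125, 137 and 138 CPM in wt and 124, 131, 128 and 151 CPM in del/+ (-0.070, -0.28 to 0.14), with the wt library that stands apart, male 17, the highest of the 8. Hirip3 was at 30.5, 41.4, 43.8 and 39.2 CPM in wt males and 38.4, 40.5, 38.0 and 36.9 CPM in del/+ males (-0.011, -0.25 to 0.23). For both genes the groups interleaved. Without wt male 17 the male values of the 6 genes remained within the same limits, at -0.0016 for Maz and -0.11 for Hirip3.

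The same holds for the splicing, phosphatase and growth genes. In 3g males Cd2bp2 differed by -0.13 (-0.31 to 0.042), Ppp4c by -0.060 (-0.28 to 0.15), Ypel3 by -0.11 (-0.38 to 0.17) and Ino80e by -0.018 (-0.17 to 0.13) on the log2 scale. In 3g females the corresponding values were -0.039, -0.016, 0.0082 and -0.037. In lysate RNA, Ypel3 was at 57.1, 56.3 and 54.3 CPM in wt and 58.4, 68.2 and 58.9 CPM in del/+, and Ino80e at 19.2, 19.4 and 20.3 and 20.5, 20.8 and 22.2 CPM. Both had every del/+ animal above every wt animal, by 0.14 (-0.070 to 0.36) and 0.11 (-0.13 to 0.34), and neither was called (adjusted p = 0.949 and 0.962).

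Kif22 and Tbx6 varied more in the 3g line. Tbx6 was at 0.660, 1.25, 1.497 and 1.04 CPM in wt males and 2.29, 1.81, 1.29 and 1.56 CPM in del/+ males, which overlap (log2 fold change 0.60, -0.0063 to 1.21, adjusted p = 0.974), and the value was 0.41 without wt male 17. Female Tbx6 differed by -0.13 (-0.48 to 0.22). The difference between the sexes, male minus female, was 0.72 (0.052 to 1.38, unadjusted p = 0.0362, adjusted p = 0.901 in edgeR), and it was the only one of the 8 members tested with an unadjusted p under 0.05, in a comparison where 0% of 19830 genes were called, 533 passed that unadjusted threshold and 0 were called by DESeq2. Without wt male 17 this Tbx6 difference was 0.54. Kif22 was at 3.24, 4.43, 4.90 and 5.26 CPM in wt males and 4.66, 7.32, 5.40 and 5.32 CPM in del/+ males (0.35, -0.062 to 0.77, and 0.24 without wt male 17). In lysate RNA it was instead at 5.31, 5.58 and 5.24 CPM in wt and 4.10, 4.22 and 4.36 CPM in del/+, without overlap (-0.35, -0.73 to 0.037, adjusted p = 0.940). The sign of the Kif22 difference thus differed between these assays of 3g males, and neither value passed the test. Pagr1a had 0 to 4 counts in the 3g RNA-seq libraries.

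In 3g footprints, Ino80e was the 1 member whose interval did not hold 0. Its footprints were 54.6, 59.4 and 62.1 CPM in wt and 29.3, 24.5 and 34.2 CPM in del/+, from 19, 22 and 22 and 13, 16 and 19 counts, and the groups did not overlap. The log2 fold change of -1.001 (-1.699 to -0.30) had an unadjusted p of 0.00759 and did not pass the correction (adjusted p = 0.414 in edgeR). The ratio of footprints to lysate RNA gave log2 values of 1.503, 1.61 and 1.61 in wt and 0.52, 0.24 and 0.62 in del/+, a difference of -1.08 (-1.68 to -0.48, unadjusted p = 0.00109, adjusted p = 0.490). All 3 del/+ footprint libraries of this line were deeper (527917 to 678130 counts) than all 3 wt libraries (342052 to 422918), and the part of depth in this value was not tested. Footprint differences of the other members were -0.050 for Maz (-0.52 to 0.42), -0.44 for Hirip3 (-1.30 to 0.41), 0.39 for Cd2bp2 (-0.53 to 1.32), 0.45 for Ypel3 (-0.080 to 0.98) and -0.045 for Ppp4c (-0.98 to 0.89). Translational efficiency in the 3g line was called for none of the 9 members, and 0% of 15137 genes were called, while 1161 genes, with Ino80e as the 1 member among them, passed an unadjusted threshold of 0.05 and 26 genes were called by DESeq2. Only 6 members passed the filter in footprints alone, so for the others the lack of a call says little.

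**Figure D4:**
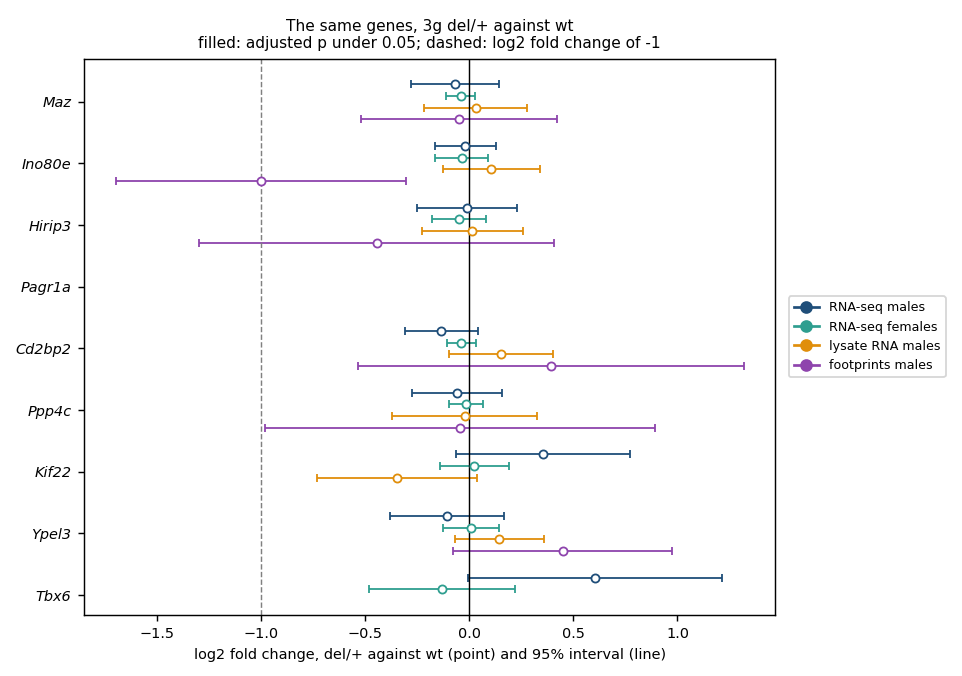
Log2 fold change of each member, 3g del/+ minus wt, in male RNA-seq, female RNA-seq, lysate RNA and footprints, with points for the fitted value, filled where called, and bars for the 95% interval. Of the 29 intervals, 28 hold 0, the exception being Ino80e in footprints, and 27 lie wholly above -1.

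Levels of the members in wt mice were also set side by side between the lines, on 1 CPM scale over all 32 RNA-seq libraries, as a description because line and library preparation cannot be told apart. Cell type markers, each on its own line's scale, differed too. In wt females of the 3g and 16p11.2 lines, cortical medians were 160 and 782 CPM and oligodendrocyte medians 5453 and 8964 CPM. Those of striatal projection neurons were closer, at 5719 and 5953 CPM. The part of tissue composition in the levels below was not tested. Hirip3 was at 36.9 to 42.0 CPM in 7 wt libraries of the 3g line and at 22.1 to 34.5 CPM in the 8 wt libraries of the 16p11.2 line. Kif22 was likewise higher in the 3g line (4.20 to 5.04 against 2.05 to 3.36 CPM), whereas Ypel3 was lower there (76.0 to 92.9 against 114.5 to 130.2 CPM). Maz was at 119 to 132 CPM against 141 to 179.8 CPM, Cd2bp2 at 79.0 to 83.8 against 86.3 to 98.8 CPM and Tbx6 at 0.991 to 1.45 against 0.260 to 0.945 CPM, while the ranges of Ino80e and Ppp4c overlapped. The eighth wt library of the 3g line, male 17, had 29.5 CPM of Hirip3, 117 CPM of Ypel3 and 3.15 CPM of Kif22, each within the range of the other line. In lysate RNA, on a scale common to both lines, the wt ranges of Hirip3, Ypel3 and Kif22 overlapped instead. Hirip3 was at 21.0 to 23.4 CPM in the 3g line against 22.0 to 23.95 CPM in the 16p11.2 line. Ypel3 was at 51.4 to 54.3 against 49.3 to 64.3 CPM and Kif22 at 4.97 to 5.33 against 3.91 to 5.49 CPM. The ranges of Maz, Tbx6 and Ppp4c overlapped there too. Those of Cd2bp2 stayed apart, at 22.84 to 24.05 CPM in the 3g line against 26.63 to 28.75 CPM. Ino80e, whose RNA-seq ranges overlapped, was apart in lysate RNA, at 18.29 to 19.25 against 19.73 to 22.23 CPM. Each loss reported above is against wt littermates of the same line.

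The members were set beside the 22 other genes of the segment, without a test of the difference. Of these, 19 were tested in each sex, 18 in lysate RNA and 10 in footprints, and 11 in males, 13 in females, 10 in lysate RNA and 1 in footprints were called lower. Their median log2 fold change was -1.09 in males, -0.99 in females and -1.02 in lysate RNA, beside -1.06, -1.07 and -1.09 for the members. In footprints it was -1.12 over 10 other genes, beside -0.68 over 3 members. They ranged from -1.49 (Gdpd3) to 0.018 (Prrt2) in males and from -1.19 (Sez6l2) to -0.53 (Septin1) in females. Of these ends, Gdpd3, Prrt2 and Septin1 were not called (adjusted p = 0.742, 0.993 and 0.998 in edgeR). Prrt2 was called lower in lysate RNA (-1.21, adjusted p = 0.00137). The other genes called in males ran from -1.24 (Sez6l2) to -0.97 (Tlcd3b), and the 6 called members lay within that range in males. In females Hirip3 (-1.24) was below the lowest of the other genes. In the 3g line 1 other gene of the segment was called, Sez6l2 in females, which is among the 3 genes targeted there.

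**Figure D5:**
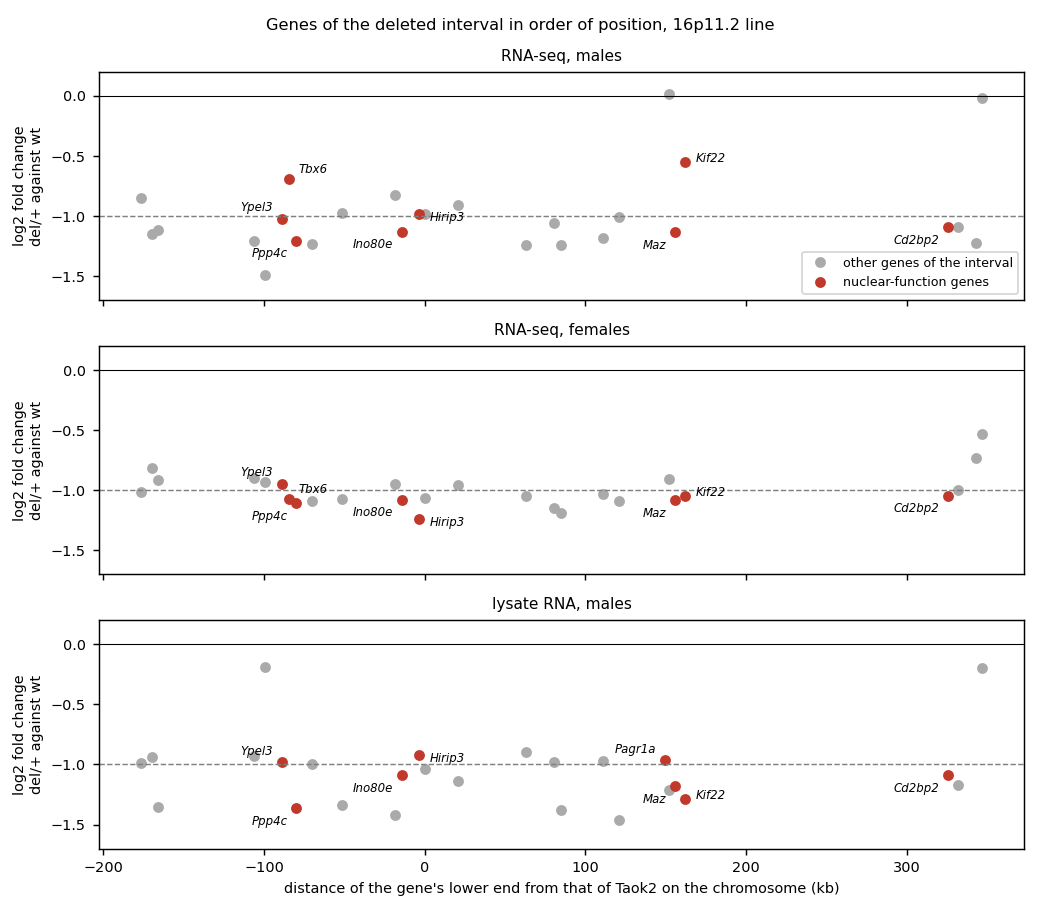
Log2 fold change, 16p11.2 del/+ minus wt, of every tested gene of the segment against its distance in kilobases from the start of Taok2, in male RNA-seq, female RNA-seq and lysate RNA (distances are between lower ends), with members in red and other genes of the segment in grey. The 6 called members lie between -1.21 and -0.94 in RNA-seq of either sex apart from Hirip3 in females at -1.24.

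Likeness of pattern was measured by Pearson's r of log2 CPM over the 16 RNA-seq libraries of the 16p11.2 line, among 18870 genes. For the 8 members with counts, 19 of the 24 nearest genes (3 per member) lay in the deleted segment. Maz was closest to Taok2 (r = 0.985), Ino80e (0.984) and Ypel3 (0.984), and Ino80e to Maz (0.984), Taok2 (0.979) and Ppp4c (0.978). Hirip3 was closest to Taok2 (0.981), Ino80e (0.960) and Maz (0.958). Cd2bp2 was closest to Kctd13 (0.989), Tbc1d10b (0.988) and Ypel3 (0.987), Ypel3 to Cd2bp2 (0.987), Kctd13 (0.987) and Tbc1d10b (0.987), and Ppp4c to Cd2bp2 (0.979), Ino80e (0.978) and Kctd13 (0.976). The scarce genes had their nearest gene outside the segment and at lower r, Kif22 with Elac2 (0.875), Slx1b (0.873, in the segment) and Tmem161a (0.869), and Tbx6 with Vps16 (0.840), Rhpn1 (0.831) and Gm38642 (0.8289). All 16 libraries share the genotype difference, so that each r includes it.

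Genes that work with the members were read out from 9 lists with 74 genes in all, and edgeR called none in either direction in any comparison, beside 0 to 8 with an unadjusted p under 0.05 per comparison. DESeq2 called 1 of them in 3g footprints and 0 elsewhere. Of the 68 tested in 16p11.2 males, 3 had an unadjusted p under 0.05, all higher (Ppp4r3a 0.28, Ypel4 0.43 and Kif11 0.59 on the log2 scale), and of the 66 tested in females 2 did (Ddx23 -0.15 and Ypel1 0.17). Among subunits of the INO80 complex other than Ino80e, log2 fold changes ran from -0.23 (Mcrs1) to 0.30 (Actr5) in males with a median of -0.036, and from -0.17 (Nfrkb) to 0.055 (Ino80d) in females with a median of -0.063. Genes of the H3.3 chaperone system around Hira ran from -0.23 (H3f3a, a gene of H3.3 itself) to 0.47 (Ubn2, a HIRA partner) in males and from -0.094 (H3f3b) to 0.11 (Asf1a) in females, with medians of 0.060 and -0.0099. Subunits of the KMT2C and KMT2D complexes, the partners of Pagr1a, had medians of 0.078 in males (Dpy30 -0.16 to Kmt2d 0.37) and -0.036 in females (Ash2l -0.11 to Paxip1 0.13).

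Regulatory subunits of protein phosphatase 4 and related phosphatases had medians of 0.028 in males (Ppp2cb -0.14 to Ppp4r1 0.36) and -0.011 in females (Ppp4r1 -0.15 to Igbp1 0.12). Proteins of the U5 particle had medians of -0.095 in males (Snrnp40 -0.23 to Prpf8 -0.050) and -0.10 in females (Snrnp200 -0.15 to Txnl4a 0.086). The Yippee-like paralogs of Ypel3 had medians of 0.077 (Ypel5 -0.13 to Ypel4 0.43) and 0.031 (Ypel4 -0.070 to Ypel1 0.17), and the zinc finger genes related to Maz differed by -0.16 (Patz1) and 0.11 (Vezf1) in males and -0.086 and -0.016 in females. Mitotic genes, the class of Kif22, ranged in males from -0.05 (Ccnb1) to 0.59 (Kif11) around a median of 0.37 and in females from -0.12 (Mki67) to 0.97 (Cdk1) around 0.11. T-box genes ranged from -0.03 (Tbx3) to 0.35 (Tbx1) in males and from -0.70 (Tbx2) to -0.032 (Tbr1) in females, around 0.089 and -0.34.

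Genes with GGGAGGG in their window, as in the stretches printed above, were also read out beside all genes with a window, because Maz was lower in the 16p11.2 line. In males the median log2 fold change of 4029 such genes was -0.0071, against -0.012 for 12517 genes with a window (counted by identifier here and by symbol above), and in females it was -0.0057 for 4024 genes, against -0.0048 for 12516. Of the genes with the letters 5 were called lower and 0 higher in either sex. Among all genes with a window, 12 were called lower and 2 higher in males and 15 lower and 2 higher in females. Maz and Ino80e hold the letters and were called lower in both sexes, and both lie in the deleted segment. The 17 genes called lower in males were 6 members and 11 other genes of that segment. The lower calls thus include deleted genes themselves, and a change in genes bound by Maz was not tested by these counts.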

How the data were processed

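Read counts per gene were deposited by the authors as whole numbers without normalization, in tables of RNA-seq (16p11.2 and 3g lines) and of lysate RNA and ribosome footprints from the same lysates. The submitters' processing notes name HTSeq and build mm10 for RNA-seq and Bowtie2 and build mm39 for lysate RNA and footprints. The study's methods name a Ribo-Zero kit and the bcbio-nextgen pipeline for RNA-seq. Versions, and use of strand in counting, are not given in the sources used here. All columns could be assigned to a sample (0 could not), and 0 pairs of libraries were identical. Replicates are labelled as separate samples or animals.

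Counts were tested with edgeR 4.0.16 in R 4.3.3: filterByExpr with its default settings (minimum count 10, minimum total 15), TMM factors, glmQLFit and glmQLFTest of del/+ against wt within each line, assay and sex, with Benjamini-Hochberg adjustment over all genes tested and a threshold of 0.05. Intervals are 95% and two-sided. Translational efficiency was the interaction of genotype and assay, and sex difference that of genotype and sex. Likeness used log2 CPM with a prior count of 2, and log2 ratios per animal used CPM. The steps were tested on simulated data with known changes.

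Alternatives were DESeq2 1.42.0, RLE factors, no filter, all 16 libraries of a line in 1 fit, a replicate block, and leaving out each library. RNA-seq replicate numbers of the 16p11.2 line did not pair the samples (correlations of deviations -0.244 to 0.060 in males and -0.0085 to 0.100 in females). Footprint and lysate RNA libraries of an animal come from 1 lysate by the labels (0.156 to 0.318 in the 16p11.2 line, 0.079 to 0.290 in the 3g line), and the block by animal changed no call of a member. The text names all 9 members, the genes called or at the ends of each list, and the 3 genes most like each member. Genes with an unadjusted p under 0.05 in the lists were named after their values were seen. Members and lists were chosen with earlier results of these data known. The extraction text in the labels speaks of human brains, while organism and tissue are mouse striatum. 1 stretch of promoter sequence is not reported here.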

Additional observations from a re-analysis of the deposited data

Results flagged for a closer look

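Of 85 groups of 4 libraries examined for 1 library far from the others by Dixon's test, 6 had such a library, where chance gives about 1 in 20. Ypel3 was highest in wt male 1 of the 16p11.2 line (123.9 CPM, against 113 to 115 in the 3 others). Cd2bp2 was lowest in del/+ female 2 of that line (38.2 CPM, against 41.2 to 41.8), and Ino80e was lowest in the lysate RNA of wt animal 4 (18.9 CPM, against 20.9 to 21.2). In the 3g line Kif22 was lowest in wt female 29 (4.48 CPM, against 4.87 to 4.92). The remaining 2 rest on a handful of counts of Pagr1a, 0.0695 CPM in 3g wt male 24 (4 counts) and 0.0322 CPM in 3g del/+ female 28 (1 count), with 0 in the other libraries of those groups. None of the 6 libraries is among the 3 that stood apart from their line or label.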

How the results depend on the processing

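The 19 calls kept their direction in all 226 alternative values, and 13 of these, for 4 calls, were no longer past the threshold. Those 4 were Hirip3 in males and in lysate RNA, Ppp4c in lysate RNA and Maz in footprints. Without 1 library the number of members called lower was 5 to 6 in males, 6 in females, 4 to 6 in lysate RNA and 0 to 1 in footprints. With the replicate number as a block it was 5 in males, where Hirip3 was lost (adjusted p = 0.190), and 6 in females. With the animal as a replicate block no member was called for translational efficiency, as without it (Hirip3 in the 16p11.2 line 1.36, adjusted p = 0.591, and Ino80e in the 3g line, adjusted p = 0.464). DESeq2 added Kif22 in females and lysate RNA (7 members each), and leaving out the filter added it in females (7, adjusted p = 0.0444).

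Uncalled differences near 0 changed sign. Over fits that leave out 1 library, the log2 fold change ran as follows in the 3g line. In RNA-seq of males it ran from -0.11 to 0.053 for Hirip3, -0.18 to 0.036 for Ypel3 and -0.10 to 0.034 for Ppp4c. In females it ran from -0.083 to 0.0041 for Ino80e, -0.022 to 0.073 for Ypel3 and -0.0062 to 0.056 for Kif22. In lysate RNA it ran from -0.070 to 0.16 for Maz, -0.055 to 0.067 for Hirip3 and -0.14 to 0.11 for Ppp4c. In footprints it ran from -0.18 to 0.085 for Maz, -0.053 to 0.72 for Cd2bp2 and -0.41 to 0.26 for Ppp4c. Translational efficiency ran from -0.19 to 0.077 for Maz, -0.18 to 0.65 for Cd2bp2, -0.97 to 0.77 for Kif22 and -0.33 to 0.29 for Ppp4c in the 3g line, and from -0.042 to 0.19 for Maz, -0.022 to 0.53 for Ino80e and -0.13 to 0.86 for Cd2bp2 in the 16p11.2 line. The sex difference ran from -0.085 to 0.00086 for Cd2bp2 and -0.21 to 0.89 for Tbx6 in the 16p11.2 line. In the 3g line it ran from -0.097 to 0.039 for Maz, -0.023 to 0.064 for Ino80e, -0.061 to 0.10 for Hirip3, -0.19 to 0.027 for Ypel3 and -0.090 to 0.048 for Ppp4c. With no filter on low counts Ypel3 was -0.0021 in 3g females, and Maz and Ppp4c were 0.017 and 0.021 in 3g footprints. Without both del/+ male 4 and del/+ female 1, an alternative chosen after seeing the data, the Cd2bp2 sex difference was 0.021. The cause was not tested.

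Counts over all genes moved more than those over the members. Genes called lower numbered 17 in 16p11.2 males (27 in DESeq2), 20 in females (39 in DESeq2, 36 with no filter), 18 in lysate RNA (10 without del/+ animal 2) and 3 in footprints (5 in DESeq2, 23 with no filter). Genes called higher numbered 2 (10 and 6, and 1 with the replicate block), 6 (11 in DESeq2, 2 with all 16 libraries in 1 fit), 1 (6 and 2) and 4 (16 and 20). In the 3g line, lower and higher calls in females were 1 and 0 (59 and 50 in DESeq2, 96 and 62 with no filter, up to 53 and 122 without 1 library), in lysate RNA 2 and 1 (8 and 5, 6 and 3) and in footprints 1 and 0 (12 and 1, 112 and 15). In males both were 0 (1 lower in DESeq2 and with all 16 libraries in 1 fit). With the animal as a replicate block, translational efficiency was called lower and higher for 1 and 9 genes in place of 0 and 1 in the 16p11.2 line, and for 8 and 2 in place of 0 and 0 in the 3g line. Leaving out 1 library also gave 2 to 10 genes called higher in 16p11.2 males, 5 to 10 in females and 0 to 2 in lysate RNA, and 0 to 5 lower and 2 to 8 higher in footprints. In the 3g line it gave 0 to 1 lower in males, 2 to 4 lower and 1 to 9 higher in lysate RNA, 0 to 22 lower and 0 to 2 higher in footprints, and 0 to 11 lower and 0 to 1 higher for translational efficiency (1 to 3 higher in the 16p11.2 line). DESeq2 gave 4 higher for translational efficiency in the 16p11.2 line, and 11 lower and 15 higher in the 3g line. Kif22 and Tbx6 had few counts, as did most members in footprints, which held 342052 to 678130 counts a library.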
